A study of Rattus norvegicus with 2 samples.

Results

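The genes described here encode the main proteins of perineuronal nets in the hypothalamus of female rats before and at puberty. They were chosen by name and are the lecticans Acan, Bcan, Ncan and Vcan, the link proteins Hapln1, Hapln2 and Hapln4, the tenascins Tnr and Tnc, and the receptor phosphatase Ptprz1, 10 genes of the 22353 in the mRNA table. All 10 were found, with 16 annotated transcripts of the 26324 mRNA transcripts. Hypothalamic RNA of Sprague Dawley rats was sequenced at a prepubertal stage (postnatal day 25) and at a pubertal stage (postnatal day 35, first estrus), with no treatment in either group. The design gives 3 hypothalami per stage, but the table holds 1 column per stage and how the animals were combined is not given in the sources used here. Each stage was therefore treated as 1 library, the files hold no spread between rats, and no difference between the stages was tested. The whole dissected hypothalamus was used, so in these bulk samples fewer cells of a type and less RNA per cell cannot be told apart.

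Perineuronal nets are lattices of extracellular matrix around the cell body and first dendrites of some neurons, and they are best known for forming as circuits mature. Long chains of hyaluronan are held at the neuron, lecticans (proteoglycans that carry chondroitin sulfate) bind these chains with the help of link proteins, and tenascin-R joins the far ends of the lecticans. Related matrix lies around the nodes of Ranvier and loosely between cells, and much of it is made by glia.

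Values are FPKM, fragments scaled to the length of the transcript and to the mapped fragments of the library, as the authors estimated them, summed over the transcripts of each gene. FPKM is per length, so levels can be compared between genes. The low FPKM of genes with 1 transcript fell on steps, and the size of a step, the worth of 1 fragment, corresponded to a scale of 20800000 fragments for the prepubertal and 16200000 for the pubertal library, 1.28 times as many before puberty. With these steps, 93.8% of 1387 low values in the prepubertal library and 94.1% of 1502 in the pubertal library came out as whole fragments within 0.05. The numbers of fragments behind each gene and the 95% counting intervals were derived from the steps. They cover counting error alone, not the spread between rats. The scale is itself an estimate that no read total was used to check. An estimate for the same libraries from the authors' p-values, not used here, was lower, and a lower scale gives fewer fragments and wider intervals for every gene. With 0.8 times the fragments, the interval of the ratio left out equal levels for 7 of the 10 genes, as it did with the full number. This factor was chosen after the data were examined, and whether it reaches the lower estimate is not shown. The share of all genes whose interval leaves out equal levels was not computed, so this count has no background beside it. Genes with many fragments have narrow intervals, which can leave out equal levels for small differences. A log2 ratio is log2 of (FPKM + 1) in the pubertal over the prepubertal library, so negative values stand for lower levels at puberty.

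Of the 10 genes, 9 were lower and 1 was higher in the pubertal library. The 10 genes had a median log2 ratio of -0.24, against -0.01 over the 13612 genes with a mean FPKM of at least 1. These 13612 genes are called all genes from here on, and 51% of them were lower and 49% were higher. Tnc, Ncan, Tnr, Vcan and Ptprz1 were lower by at least 1.2-fold in FPKM + 1, 5 of 10 genes, against 15.3% of all genes. Tnc and Ncan were lower by at least 1.5-fold, 2 of 10, against 2.33% of all genes. Hapln2 was the 1 gene higher by at least 1.2-fold and also by at least 1.5-fold, against 11.2% and 1.75% of all genes. Acan had a mean FPKM under 1, and the other 9 genes passed this filter. With the libraries scaled to equal medians, 9 genes were again lower and 1 higher, against 44.4% lower and 55.6% higher of all genes. Ncan then had a log2 ratio of -0.55, so that Tnc alone was lower by at least 1.5-fold, against 1.96% of all genes. A scaling to equal Actb, chosen after the data were examined, raises every gene of the pubertal library alike. The 10 genes were then 4 lower and 6 higher with a median of 0.11, while 90.4% of all genes were higher and their median was 0.36.

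**Figure D1:**
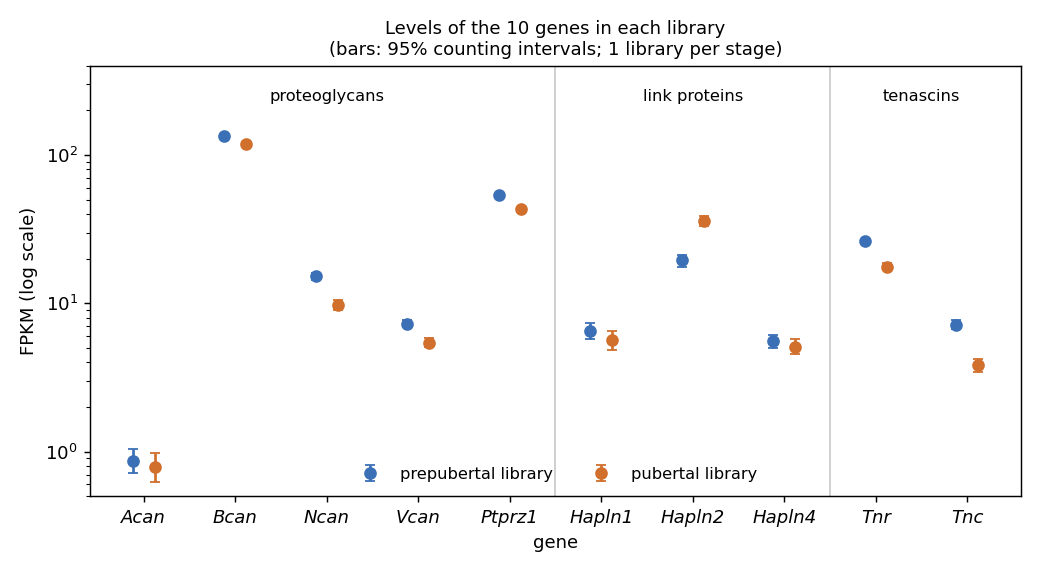
FPKM (log axis) of the 10 genes in the prepubertal and the pubertal library, 1 point per library, with 95% counting intervals. Bcan had the highest level in both libraries and Acan the lowest, and Hapln2 is the gene whose pubertal point lies above its prepubertal point.

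For the genes furthest from equal levels, Tnc and Ncan on the lower side and Hapln2 on the higher side, the 250 bases before the transcription start are given so that their promoters can be compared. They are from RefSeq (build GRCr8, a later build than that of the files) and read in the direction of the gene, with capitals for matches on either strand to GGGCGG (a GC box), TATAA (the core of a TATA box) and ACAANG (a core that Sox factors can bind). These motifs were chosen with the sequences in view. The Tnc promoter lies at chr5:82476132-82476381 on the minus strand, the Ncan promoter at chr16:19335657-19335906 on the plus strand and the Hapln2 promoter at chr2:175794439-175794688 on the minus strand.
Tnc: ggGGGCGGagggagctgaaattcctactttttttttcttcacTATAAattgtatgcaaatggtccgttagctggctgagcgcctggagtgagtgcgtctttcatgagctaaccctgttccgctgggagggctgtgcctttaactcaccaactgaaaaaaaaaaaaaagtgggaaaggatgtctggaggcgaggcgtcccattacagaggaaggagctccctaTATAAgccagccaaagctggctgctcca
Ncan: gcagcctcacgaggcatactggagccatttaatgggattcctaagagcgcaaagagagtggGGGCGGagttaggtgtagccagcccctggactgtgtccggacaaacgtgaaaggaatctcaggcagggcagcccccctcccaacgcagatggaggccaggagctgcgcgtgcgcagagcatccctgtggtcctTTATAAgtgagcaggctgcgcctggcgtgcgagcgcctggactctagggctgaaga
Hapln2: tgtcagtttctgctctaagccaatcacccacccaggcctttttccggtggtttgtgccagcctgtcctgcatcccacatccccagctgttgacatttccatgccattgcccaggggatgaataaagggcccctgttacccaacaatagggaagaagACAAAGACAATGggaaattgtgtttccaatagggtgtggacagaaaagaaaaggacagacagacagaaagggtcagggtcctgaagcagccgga
The Tnc and Ncan windows each hold a GC box, 248 and 189 bases before the start, and a TATAA, which in Tnc begins 208 and 28 bases before the start and in Ncan 56 bases before it, where TTATAA reads the same on both strands and gives overlapping matches. The Hapln2 window holds neither. It holds ACAANG at 94 and at 88 bases before the start, side by side. The Tnc window has 7 CpG, the Ncan window 13 and the Hapln2 window 2. Among all 33469 promoter windows of this length, 30.5% hold GGGCGG, 24.0% hold TATAA and 36.9% hold ACAANG. Of the 9 member genes in that table, 5 held GGGCGG, 5 held TATAA and 4 held ACAANG, with the overlapping windows of Vcan counted once. A match describes the letters and is no sign that a factor binds. Ptprz1 had no window in the table.

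The lecticans are the proteoglycans that link hyaluronan to the rest of the net. Brevican, encoded by Bcan and made mainly by glia, was by far the most abundant, with 134 FPKM before puberty and 119 FPKM at puberty. These values rest on 8402 and 5809 fragments, and the ratio of FPKM was 0.884 (95% counting interval 0.854 to 0.914), a log2 ratio of -0.18. Bcan made up 85.2% of the summed lectican FPKM before puberty and 88.2% at puberty. Its ratio lay at percentile 24.3 of all genes, just outside the interquartile range of all genes, which spanned log2 ratios of -0.17 to 0.14.

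Neurocan (Ncan) is a lectican best known from the developing brain. Ncan had 15.2 FPKM before puberty and 9.74 FPKM at puberty, from 1139 and 572 fragments. The pubertal level was 0.641 times the prepubertal level (95% counting interval 0.579 to 0.710), a log2 ratio of -0.59, at percentile 2.22 of all genes. Bcan had 8.85 times the FPKM of Ncan before puberty and 12.2 times at puberty.

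Versican (Vcan) is a lectican with several splice forms that differ in the stretch carrying chondroitin sulfate. Summed over its transcripts, Vcan had 7.29 FPKM at the earlier stage and 5.43 FPKM at the later one (1183 and 736 fragments), a ratio of 0.745 (95% counting interval 0.678 to 0.817) and a log2 ratio of -0.37. Its transcripts were not alike. ENSRNOT00000067456, 6338 nt long, had 4.86 FPKM before puberty and 3.05 FPKM at puberty, a log2 ratio of -0.53. ENSRNOT00000045532, 11546 nt long, had 2.43 and 2.38 FPKM, a log2 ratio of -0.02. ENSRNOT00000063821, 3440 nt long, was listed at 0 in both libraries. The assignment of fragments to overlapping transcripts was made by Cuffdiff, so the split between them is less certain than the sum.

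Aggrecan (Acan) is the lectican most used to mark nets. It was the lowest of the 10 genes, with 0.869 FPKM before puberty against 0.788 FPKM at puberty, from 119 and 84 fragments. The ratio of 0.907 had a 95% counting interval of 0.677 to 1.21, so at this depth no difference was detectable. Of its transcripts, ENSRNOT00000049681 had 0.597 and 0.692 FPKM, a ratio whose 95% counting interval, 0.835 to 1.61, includes equal levels. ENSRNOT00000047848 had 0.272 and 0.0956 FPKM, from 38 and 10 fragments, and its ratio of 0.351 had an interval of 0.156 to 0.718, which does not include equal levels. Here too the split between overlapping transcripts is less certain than the sum. Acan made up 0.551% and 0.585% of the summed lectican FPKM.

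Ptprz1 encodes a receptor phosphatase of glia whose secreted form, phosphacan, is also a chondroitin sulfate proteoglycan and binds tenascins and contactin. It was the second in level in both libraries, with 53.3 FPKM before puberty and 43.0 FPKM at puberty (8411 and 5308 fragments). The ratio was 0.807 (95% counting interval 0.780 to 0.836) and the log2 ratio was -0.30, at percentile 12.3 of all genes. Scaled to equal medians Ptprz1 had a log2 ratio of -0.26, and scaled to equal Actb 0.09, below the median of all genes on that scale, 0.36.

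The link proteins hold lecticans to hyaluronan, and of the 3 genes Hapln2 alone differed beyond counting error. Hapln2, a link protein of oligodendrocytes found at the nodes of Ranvier, had 19.4 FPKM before puberty and 36.0 FPKM at puberty, from 455 and 662 fragments. This is a ratio of 1.86 (95% counting interval 1.64 to 2.09) and a log2 ratio of 0.86, at percentile 99.4 of all genes. Hapln2 lay below Tnr in level before puberty but above it at puberty.

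Hapln1, the link protein first known from cartilage, had 6.48 and 5.61 FPKM (255 and 173 fragments), a ratio of 0.867 with a 95% counting interval of 0.710 to 1.06. Hapln4, a neuronal link protein known as a partner of brevican, had 5.55 and 5.11 FPKM (395 and 285 fragments), a ratio of 0.921 with a 95% counting interval of 0.788 to 1.07. For Hapln1 and Hapln4 the interval includes equal levels, so no difference was detectable at this depth. Of the Hapln1 transcripts, ENSRNOT00000042958 carried the whole FPKM, and ENSRNOT00000043196 was listed at 0 in both libraries. Hapln2 made up 61.8% before puberty and 77.1% at puberty of the summed link protein FPKM, which was 31.5 before puberty and 46.8 at puberty. The higher sum is that of Hapln2, as Hapln1 and Hapln4 together had 12.03 and 10.72 FPKM. The summed lecticans, mostly Bcan, had 158 FPKM before puberty and 135 FPKM at puberty.

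The tenascins are large multimeric proteins that bind the lecticans. Tnr (tenascin-R), the tenascin of nets and of myelinated regions, had 26.3 FPKM before puberty and 17.7 FPKM at puberty, from 3234 and 1746 fragments. The ratio was 0.674 (95% counting interval 0.635 to 0.714), and the log2 ratio of -0.54 lay at percentile 2.87 of all genes. The transcript ENSRNOT00000076589 held most of it, with 24.9 and 17.0 FPKM. ENSRNOT00000003407 was listed at 0 before puberty and at 0.233 FPKM at puberty, and the 496 nt transcript ENSRNOT00000076860, with 1.41 and 0.504 FPKM, rests on 7 and 2 fragments.

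Tnc (tenascin-C), known from developing tissue and from astrocytes and progenitors, had the lowest log2 ratio of the 10 genes. It had 7.18 FPKM before puberty and 3.81 FPKM at puberty, from 871 and 361 fragments of its single transcript. The pubertal level was 0.531 times the prepubertal level (95% counting interval 0.468 to 0.600), a log2 ratio of -0.77 at percentile 0.926 of all genes. Tnr had 3.66 times the FPKM of Tnc before puberty and 4.65 times at puberty.

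**Figure D2:**
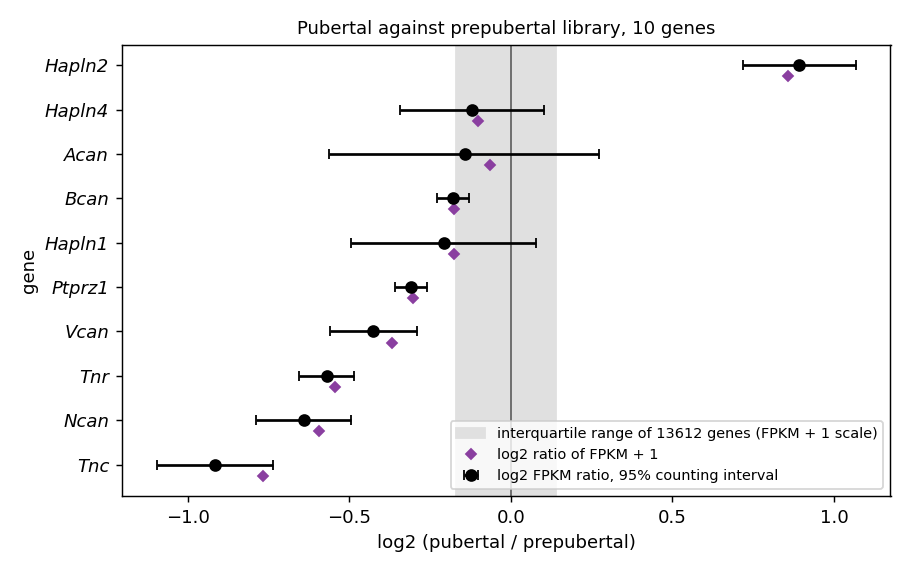
Log2 of pubertal over prepubertal FPKM for the 10 genes (black points, with 95% counting intervals) and the same with 1 added to FPKM (purple diamonds). The grey band is the interquartile range of the 13612 genes with mean FPKM of at least 1, from -0.17 to 0.14. Tnc, Ncan, Tnr, Vcan and Ptprz1 lie clearly to its left, Bcan and Hapln1 lie at its left edge, just outside it, and Hapln2 lies to its right.

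In order of level, the prepubertal library had Bcan, Ptprz1, Tnr, Hapln2, Ncan, Vcan, Tnc, Hapln1, Hapln4 and Acan. The counting intervals of neighbours in this order overlapped for Vcan and Tnc, for Tnc and Hapln1, and for Hapln1 and Hapln4. The pubertal order was Bcan, Ptprz1, Hapln2, Tnr, Ncan, Hapln1, Vcan, Hapln4, Tnc and Acan, with overlaps for Hapln1 and Vcan and for Vcan and Hapln4. Tnc had place 7 before puberty and place 9 at puberty, and Hapln2 had places 4 and 3. Among the 13612 genes with a mean FPKM of at least 1, Bcan lay above 93.7% before puberty and 92.6% at puberty, and Ptprz1 above 83.2% and 79.4%.

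Each lectican gene lies next to a link protein gene in the rat genome. In the RefSeq annotation of GRCr8, 0 protein-coding genes lie between Bcan and Hapln2 or between Vcan and Hapln1 (chromosome 2), Ncan and Hapln4 (chromosome 16) or Acan and Hapln3 (chromosome 1). Bcan had a log2 ratio of -0.18 beside 0.86 for Hapln2, so that Bcan went from 6.92 to 3.30 times the FPKM of Hapln2. Ncan had -0.59 beside -0.10 for Hapln4, and the counting intervals of the ratios did not overlap within these pairs. Vcan had -0.37 beside -0.18 for Hapln1, with overlapping intervals. Hapln3, the link protein that is not among the 10 genes, had 1.08 FPKM before puberty and 0.806 FPKM at puberty, a log2 ratio of -0.21 beside -0.06 for Acan. It rests on 24 and 14 fragments, and the interval of its ratio, 0.356 to 1.497, holds that of Acan.

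Over all genes the ratio went with transcript length. When genes were split into 10 classes by the length of their most abundant transcript, the median log2 ratio was 0.08 in the shortest class and -0.13 in the longest, from 4463 to 17543 nt. Vcan, Tnr, Tnc and Ptprz1 belong to the longest class, where 23.1% of 1361 genes were lower by at least 1.2-fold and 77.1% were lower at all. Hapln2, 1384 nt long, lies in a class with a median of 0.05. After the median of each class was subtracted, Tnc had -0.64, Ncan -0.52, Tnr -0.42, Vcan -0.24, Ptprz1 -0.18 and Hapln2 0.81. Thus 3 of the 10 genes, Tnc, Ncan and Tnr, were lower by at least 1.2-fold on this scale, against 14.4% of all genes. The order of these 6 genes did not change.

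**Figure D3:**
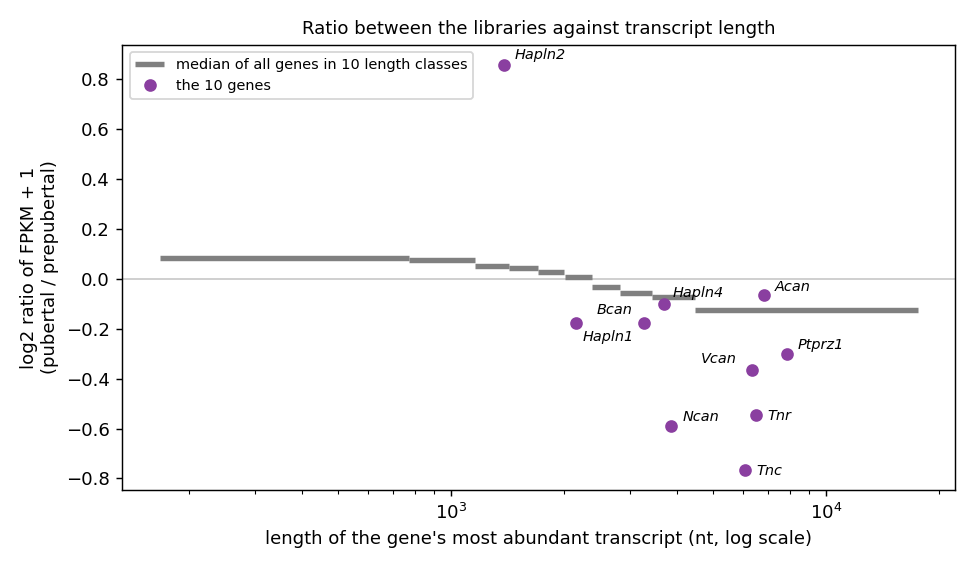
Log2 ratio of FPKM + 1 against the length of each gene's most abundant transcript (nt, log axis). Grey bars are the medians of all genes with mean FPKM of at least 1 in 10 length classes, which run from 0.08 to -0.13, and purple points are the 10 genes. Tnc, Ncan and Tnr lie furthest below the bar of their class and Hapln2 lies furthest above.

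The genes that make, cut or bind the net were described by lists. Of 21 genes for chondroitin sulfate synthesis, 19 had a mean FPKM of at least 1. Of these 16 were lower and 3 higher, 2 were lower by at least 1.2-fold and 0 higher (median log2 ratio -0.15). Both of the 2 are sulfotransferases, Ust with 11.1 FPKM before puberty and 8.02 FPKM at puberty and Chst7 with 2.09 and 1.53 FPKM. Chst7 rests on 89 and 51 fragments and its ratio had a 95% counting interval of 0.508 to 1.04, which includes equal levels. The sulfotransferases Chst13 and Chst14 were under the filter and went in opposite directions. Chst13 had 0.251 and 0.799 FPKM from 4 and 10 fragments, with an interval of 0.917 to 13.9. Chst14 had 1.05 and 0.317 FPKM from 38 and 9 fragments, with an interval of 0.129 to 0.636. The highest in level was B3gat3, which helps to build the linker of the sugar chain to the protein, with 144 and 166 FPKM. Hyaluronan is made at the cell membrane by Has1, Has2 and Has3, which had 0.602, 0.590 and 0.631 FPKM before puberty and 0.435, 0.503 and 0.584 FPKM at puberty, all under the filter. Of the 10 genes on that list 6 passed the filter, 4 were lower and 2 higher, and 3 were lower by at least 1.2-fold (median -0.22). Cemip, which takes part in hyaluronan breakdown, had 2.51 and 1.25 FPKM, and Hyal2, the highest of the list, had 9.76 and 9.998 FPKM.

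Among genes with a mean FPKM of at least 1, the matrix proteases held the log2 ratio furthest from 0 in these lists. Of 17 genes 13 passed the filter, 9 of them lower and 4 higher, with 5 lower and 1 higher by at least 1.2-fold (median -0.25). Mmp14, a membrane-bound matrix metalloprotease, had 6.87 FPKM before puberty and 2.98 FPKM at puberty. Adamts4, which cuts lecticans, had 12.8 and 7.89 FPKM, and Adamts15, of the same family, had 4.39 and 2.39 FPKM. Ctss, the lysosomal cathepsin S of microglia and the highest of the list, went the other way with 111 and 153 FPKM. Among 8 protease inhibitors 7 passed the filter, 4 lower and 3 higher, and 1 was lower by at least 1.2-fold (median -0.14). This was Timp1 with 7.20 and 4.20 FPKM, from 76 and 35 fragments. Serpini1, the highest of the list, had 104 and 118 FPKM.

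Of 19 receptors and binding partners of the net, 18 passed the filter, 15 lower and 3 higher, with 8 lower and 1 higher by at least 1.2-fold (median -0.18). Nfasc, neurofascin of axon initial segments and nodes, had 58.2 FPKM before puberty and 35.4 FPKM at puberty. Lingo1, a partner of the Nogo receptor, had 17.6 and 10.6 FPKM. Ptn, the growth factor pleiotrophin that binds Ptprz1, was the highest of the list with 349 and 284 FPKM. Of 20 genes listed as other proteoglycans of the brain 18 passed the filter, 16 lower and 2 higher, with 3 lower by at least 1.2-fold and 0 higher (median -0.18). The highest of the list, with 887 and 794 FPKM, was Sparcl1, which encodes a matricellular glycoprotein rather than a proteoglycan. The list for the neurons that often bear nets holds 8 genes, among them the calcium-binding protein Pvalb and Kv3 channels. Of these genes 5 were lower, 3 higher and 0 past 1.2-fold (median -0.04). Pvalb was higher at puberty, with a ratio of 1.16 (counting interval 1.05 to 1.28). Gad1 had a ratio of 0.873 (0.836 to 0.911) and Kcna2 had 0.903 (0.833 to 0.979). These intervals leave out equal levels, and those of the other genes on the list include them. Gad2, the highest of that list, had 106 and 108 FPKM. The background shares of 15.3% lower and 11.2% higher by at least 1.2-fold hold for each of these counts.

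Among the 89 entries of these lists with a mean FPKM of at least 1, the nearest log2 ratios to Tnc (-0.77) were those of Nfasc (-0.70) and Lingo1 (-0.68). The nearest to Ncan (-0.59) were Nptxr (-0.56) and Adamts4 (-0.64). Hapln2 (0.86) had no close neighbour, as the nearest were Ctss (0.46) and Mdk (0.39). With 2 libraries, nearness of a ratio is the one likeness that can be given.

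Markers of cell types and of brain regions also differed between the libraries. Among all genes 51% were lower at all, and 15.3% were lower and 11.2% higher by at least 1.2-fold. By at least 1.5-fold 2.33% were lower and 1.75% higher. These shares stand beside each marker count below. All 4 telencephalon markers that passed the filter, of 6 listed, were lower by at least 1.2-fold, with Camk2a at 59.6 and 24.8 FPKM and Slc17a7 at 26.2 and 12.8 FPKM, past 1.5-fold like Neurod6 (5.08 and 2.36 FPKM), and the summed level of the list went from 93.1 to 41.6 FPKM. Of 8 fibroblast and meninges markers 8 were lower, 7 by at least 1.2-fold, with Igf2 at 27.1 and 21.3 FPKM and Col1a2 at 15.8 and 8.76 FPKM, and the sum went from 95.9 to 61.4 FPKM. Past 1.5-fold were 5 of these 8, Col1a2, Col1a1 (9.57 and 2.93 FPKM), Col3a1 (14.6 and 8.19 FPKM), Slc6a13 (8.72 and 3.71 FPKM) and Slc22a6 (2.16 and 0.783 FPKM). Of 6 genes listed as thalamus markers 6 were lower, 4 by at least 1.2-fold. Slc17a6 had 206 and 188 FPKM, Prkcd 108 and 85.3 FPKM and Tcf7l2, past 1.5-fold, 19.9 and 12.2 FPKM. The sum of this list went from 384 to 328 FPKM and rests most on Slc17a6. As Slc17a6 is not particular to the thalamus, this sum is no measure of thalamic tissue. Hypothalamic markers were present in both libraries, and 6 of 8 were higher at puberty, 5 by at least 1.2-fold, with Pmch at 1675 and 2723 FPKM and Oxt at 411 and 686 FPKM (sum 2608 and 3997 FPKM). The part of these markers in the lower levels of Tnc, Ncan, Tnr, Vcan and Ptprz1 was not tested.

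Glial markers stand beside the members that glia make. Of 6 markers of oligodendrocyte progenitors 6 were lower, 1 by at least 1.2-fold, with Olig1 at 71.6 and 64.4 FPKM and Pdgfra at 32.8 and 27.6 FPKM (sum 182 and 149 FPKM). The 1 past 1.2-fold was Gpr17, a receptor of committed progenitors, with 38.2 and 21.1 FPKM and a log2 ratio of -0.83. Of 7 markers of mature oligodendrocytes 5 were lower and 2 higher, and 2 lower and 1 higher by at least 1.2-fold (median log2 ratio -0.18). The 2 higher ones were the highest in level, Mbp with 4633 and 5335 FPKM and Mobp with 929.9 and 1140.05 FPKM, and they set the sum of the list (7276 and 7959.9 FPKM). Lower by at least 1.2-fold were Mag with 192 and 153 FPKM and Opalin with 60.3 and 46.1 FPKM. None of these 7 markers had a log2 ratio as high as that of Hapln2, the highest being 0.29 for Mobp. Of 8 astrocyte markers 3 were lower and 5 higher, 2 by at least 1.2-fold in each direction, with S100b at 693 and 764 FPKM and Slc1a2 at 374 and 258 FPKM (sum 1959 and 1885 FPKM), and Gja1, the gap junction protein connexin 43, was past 1.5-fold with 106 and 66.3 FPKM. Their part in the values of Hapln2, Bcan and Ptprz1 was not tested.

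Of 8 neuron markers 6 were lower, 4 by at least 1.2-fold, and 2 higher, with Snap25 at 654 and 628 FPKM and Tubb3 at 554 and 522 FPKM (sum 2290.2 and 2151 FPKM). Of 6 endothelium markers 4 were lower and 2 higher, with Cldn5 at 70.9 and 65.5 FPKM and Slco1a4 at 29.0 and 43.5 FPKM (sum 127 and 134 FPKM), and Kdr was past 1.5-fold with 2.60 and 1.38 FPKM. Of 6 choroid plexus markers 4 passed the filter, 1 lower and 3 higher, with Ttr at 29.0 and 23.0 FPKM and Folr1 at 2.37 and 3.01 FPKM (sum 35.3 and 31.3 FPKM). None of the markers named here was at 0 in a library.

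**Figure D4:**
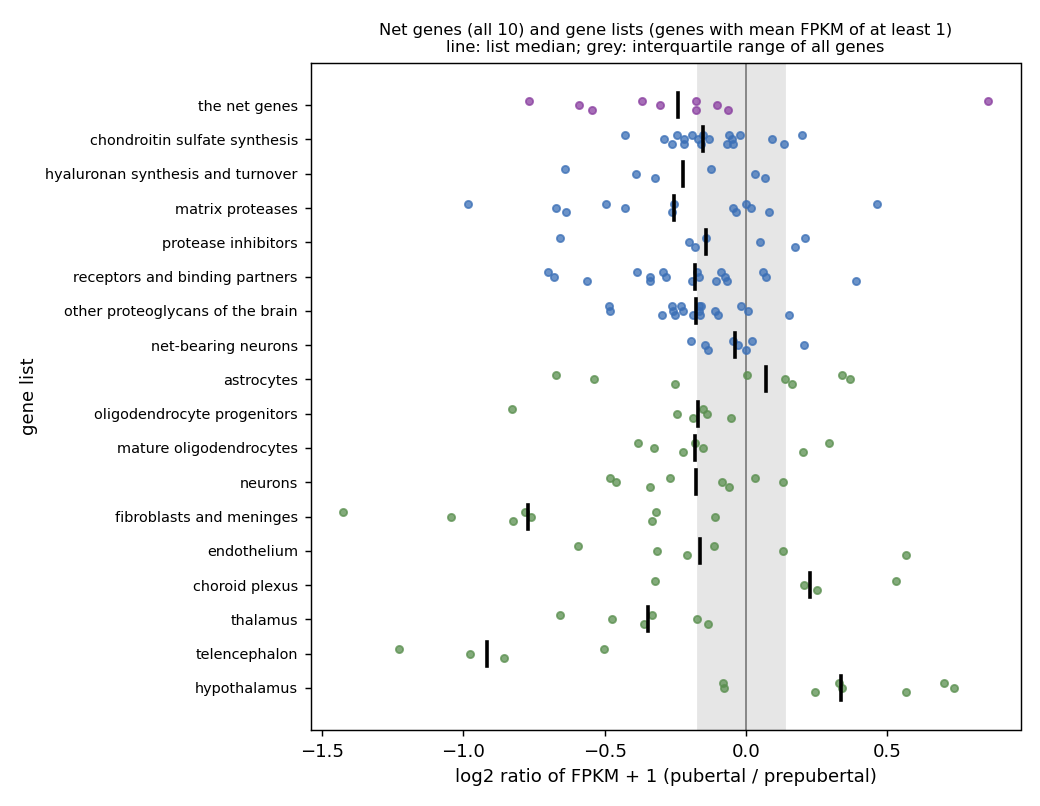
Log2 ratios of FPKM + 1 of the 10 net genes (purple, top) and of the genes with mean FPKM of at least 1 in 7 lists of net-related genes (blue) and 10 lists of cell type or region markers (green). Black lines are list medians and the grey band is the interquartile range of all genes. The telencephalon list (-0.92) and the fibroblast and meninges list (-0.77) have the lowest medians and the hypothalamus list the highest (0.34), beside -0.24 for the net genes.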

How the data were processed

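Rat hypothalamus was profiled at 2 stages, and the deposited mRNA table holds 1 column of FPKM per stage. The authors depleted ribosomal RNA, made strand-specific libraries, aligned paired reads with TopHat and estimated FPKM with Cuffdiff 2.1.1. The submitters' processing notes name the build Rnor_5.0, whereas the study's methods name a later annotation, so no coordinates of the files were used. The comparison table also holds the authors' ratios, p-values and q-values, which were not used. It gave gene names, transcript lengths in nt and a second copy of the deposited FPKM, equal for all 16 member transcripts.

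FPKM was summed per gene name, and log2 ratios were computed with a pseudocount of 1. Genes with a mean FPKM of at least 1 formed the background. Fragments were derived from single-transcript genes of 1000 to 6000 nt, whose FPKM multiplied by length less a mean fragment length of 256 nt (prepubertal) or 252 nt (pubertal) gave whole multiples of a step. Counting intervals are exact Poisson (levels) or Clopper-Pearson (ratios) at 95%, for counting error only. The steps and ratios were checked on simulated data. The members and lists were chosen with earlier results of these data known. Named were, from the net-related lists, genes past 1.5-fold and the highest in level and, from the marker lists, the 2 highest in level. Others were named after their values were seen. Chsy3 and Otx2 each sum 2 gene identifiers, and Cspg4 and Dcn are on 2 lists. Gpc6 and Neurod2 were not found by name, and 1 gene of the mature oligodendrocyte list is not reported here. Python 3.11.15, numpy 2.4.6, pandas 2.3.3 and scipy 1.17.1 were used. Alternatives were a pseudocount of 0.1, no filter, equal medians, centring by length, the highest transcript per gene and the FPKM of the comparison table, and equal Actb and fewer fragments were added after the data were examined.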

Additional observations from a re-analysis of the deposited data

How the results depend on the processing

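No paired analysis was possible because the files hold 1 column per stage, and for the same reason no replicate could be left out. With the FPKM of the comparison table and a pseudocount of 0.1 the counts of net genes did not move, and the median of the 10 genes was -0.24 and -0.26. Scaling to equal medians (a factor of 1.03 on the pubertal library) left 1 gene lower by 1.5-fold, Tnc, in place of 2, and 4 lower by 1.2-fold in place of 5, as Ptprz1 had -0.26, just short of it, while the shares of all genes were 1.96% and 12.4%. The net-bearing neuron median was then 0.0073, the other sign, and -0.11 with the highest transcript per gene. Centring within length classes gave 2 genes higher (Acan and Hapln2), 3 lower by 1.2-fold and 1 lower by 1.5-fold, against 49.99%, 14.4% and 2.42% of all genes, and a matrix protease median of -0.13. The highest transcript per gene gave 2 genes higher, Acan with 0.08 among them, against 49.0% of all genes. Without the filter, as genes near 0 entered, the median was -0.11 for matrix proteases, -0.046 for protease inhibitors and -0.14 for hyaluronan.

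With equal Actb (763 and 576 FPKM, a factor of 1.32), 4 net genes were lower, 6 higher, 1 lower by 1.2-fold (Tnc, -0.44) and 0 by 1.5-fold, against 2.33% and 0.646% of all genes, and their median was 0.11. Hapln2 alone was higher by 1.2-fold, against 65.2% of all genes. Ptprz1 had 0.094. The medians were then 0.22 for chondroitin sulfate synthesis, 0.11 for hyaluronan, 0.13 for matrix proteases, 0.25 for protease inhibitors, 0.18 for receptors and binding partners, 0.17 for other proteoglycans, 0.35 for net-bearing neurons and 0.023 for thalamus markers, against 0.36 over all genes. These shifts follow from the factor. Depth limits Acan, Hapln1 and Hapln4, whose counting intervals include equal levels.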
